A study of Homo sapiens with 12 samples.

Results

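IL32 is the gene of interleukin-32, and its level and its transcripts are described here in HMC3 cells, an immortalized human cell line labelled as microglia. It was chosen for its large rise with EphB2-Fc in these libraries, that is, it was chosen by its log2 fold change with EphB2-Fc, a choice that names no siRNA arm. The IL32 difference with EphB2-Fc is therefore given as a description in both arms and is not tested. The gene (ENSG00000008517) is 1 of 36315 genes paired with the deposited transcripts, and all of its 35 annotated transcripts were among the 188753 listed. It lies on the plus strand at chr16:3065297-3082192 of GRCh38.

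The cells were transfected with negative control siRNA or ephrin-B1 siRNA for 48 h and then given pre-clustered Ctrl-Fc or EphB2-Fc at 2 µg/mL for 24 h. EphB2-Fc is the receptor EphB2 joined to an antibody Fc part, and ephrin-B1 is one of the ligands that EphB2 binds. There were 4 groups of 3 libraries. With the negative control siRNA, cells given Ctrl-Fc are called Ctrl and cells given EphB2-Fc are called EphB2. Knocked-down cells given Ctrl-Fc are called ephrin-B1 siRNA, and those given EphB2-Fc are called EphB2 + ephrin-B1 siRNA. All 12 libraries thus share the cell line, a transfection and a clustered Fc protein, and no untouched cells were analysed here. Replicates 1, 2 and 3 carry the experiment numbers 2, 3 and 5 in each group. The study calls its RNA-seq replicates biological and does not say how the cultures were kept apart, so p-values measure the spread between these libraries.

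IL-32 is a pro-inflammatory cytokine that was first described in activated natural killer and T cells and is also made by epithelial, endothelial and myeloid cells. TNF, IL-1β and interferons raise its transcription in many cell types, largely through NF-kB. IL-32 in turn raises the production of TNF, IL-6 and CXCL8, and rodents have no known counterpart of the gene. Its pre-mRNA is spliced into many forms, of which α, β, γ and δ are the best known, with γ the longest.

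The depth was between 13230689 and 25785591 estimated counts per library (median 18694233). IL32 received 26.2 to 447.5 of these. The knocked-down gene followed its labels. EFNB1, which encodes ephrin-B1, was at 17.5 to 20.4 CPM (counts scaled to the same library size) in Ctrl, 15.6 to 18.8 in EphB2, 6.6 to 8.7 in ephrin-B1 siRNA and 6.03 to 6.56 in EphB2 + ephrin-B1 siRNA. The label microglia was checked against 16 marker genes. AIF1 and C1QB were at 0 after rounding, while CX3CR1, TYROBP, C1QA and C1QC had 1 to 3 counts over all 12 libraries, so defining markers of microglia were at or near 0.

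The IL32 forms differ by where transcription starts and by which coding stretches are kept. RefSeq (GRCh38.p14) gives IL32 promoters for 2 starts, each shown from 250 bases before to 50 bases after the start, 5′ to 3′ on the plus strand. They are shown because the transcripts with an upstream first exon carried most of the IL32 counts. Capitals mark the matches to the motifs searched.
Upstream start, chr16:3065153-3065452: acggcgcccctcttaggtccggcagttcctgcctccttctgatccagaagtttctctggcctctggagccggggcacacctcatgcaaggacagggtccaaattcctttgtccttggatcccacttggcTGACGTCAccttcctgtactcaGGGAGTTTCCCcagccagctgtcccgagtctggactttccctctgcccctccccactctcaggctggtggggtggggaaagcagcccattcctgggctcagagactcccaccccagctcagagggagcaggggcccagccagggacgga
Downstream start, chr16:3065534-3065833: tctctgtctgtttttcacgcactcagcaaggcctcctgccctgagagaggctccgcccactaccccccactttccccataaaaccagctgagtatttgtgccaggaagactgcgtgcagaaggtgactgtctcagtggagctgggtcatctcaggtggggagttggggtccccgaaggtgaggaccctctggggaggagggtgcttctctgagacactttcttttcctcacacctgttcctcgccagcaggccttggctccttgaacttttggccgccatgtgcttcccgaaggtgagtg

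Both strands of each window were searched for the NF-kB consensus, the cyclic AMP response element TGACGTCA, the AP-1 motif TGANTCA, the STAT motif TTCNNNGAA and the TATA box TATAAA. The upstream window held the cyclic AMP response element from 121 bases before the start and 2 overlapping NF-kB matches, 1 on each strand, from 99 and 98 bases before it. Its other motifs were not found, and the downstream window held none of the 5. Of 35116 promoter windows of the same length, 5.9% held the NF-kB consensus, 1.8% the cyclic AMP response element, 7.7% the AP-1 motif, 7.7% the STAT motif and 11.5% the TATA box. The first annotated base of the gene, in IL32-202, lies 106 bases before the RefSeq start, so the NF-kB matches fall within the first exon of that transcript. The downstream RefSeq start lies 487 bases after the first annotated base, and 18 of the 20 transcripts grouped below under the downstream first exon begin before it, by up to 174 bases. A match of letters is not a binding site, and binding was not measured.

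The coding stretches that separate the main IL32 forms follow, read from the GENCODE transcripts. They are shown because they set the forms IL32-223, IL32-201 and IL32-204 apart from IL32-202.
Kept in the 234-residue form IL32-223 and spliced out of IL32-202, chr16:3067416-3067553: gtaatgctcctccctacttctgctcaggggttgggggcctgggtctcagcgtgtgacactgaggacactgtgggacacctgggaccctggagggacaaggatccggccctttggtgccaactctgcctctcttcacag
Exon of IL32-202 that is skipped in the 168-residue form IL32-201, chr16:3067554-3067613: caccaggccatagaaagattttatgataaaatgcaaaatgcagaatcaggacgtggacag
Kept in IL32-202 and spliced out of the 131-residue form IL32-204, chr16:3069110-3069280: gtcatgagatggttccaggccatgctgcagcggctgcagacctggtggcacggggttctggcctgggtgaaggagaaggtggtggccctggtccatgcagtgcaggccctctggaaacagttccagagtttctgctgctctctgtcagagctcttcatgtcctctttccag

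The 3 stretches are 138, 60 and 171 bases long and lie wholly within the coding sequence of the transcript they were read from. Each length is a multiple of 3, so dropping one keeps the reading frame. The length of the coding sequence does not follow them throughout. All 3 transcripts of 234 residues keep the first stretch and 0 of the 3 of 131 residues hold the last, but 2 of the 5 of 168 residues keep the exon that IL32-201 skips. A form of 234 residues has the length of IL-32γ, one of 188 residues that of IL-32β and one of 131 residues that of IL-32α.

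**Figure D1:**
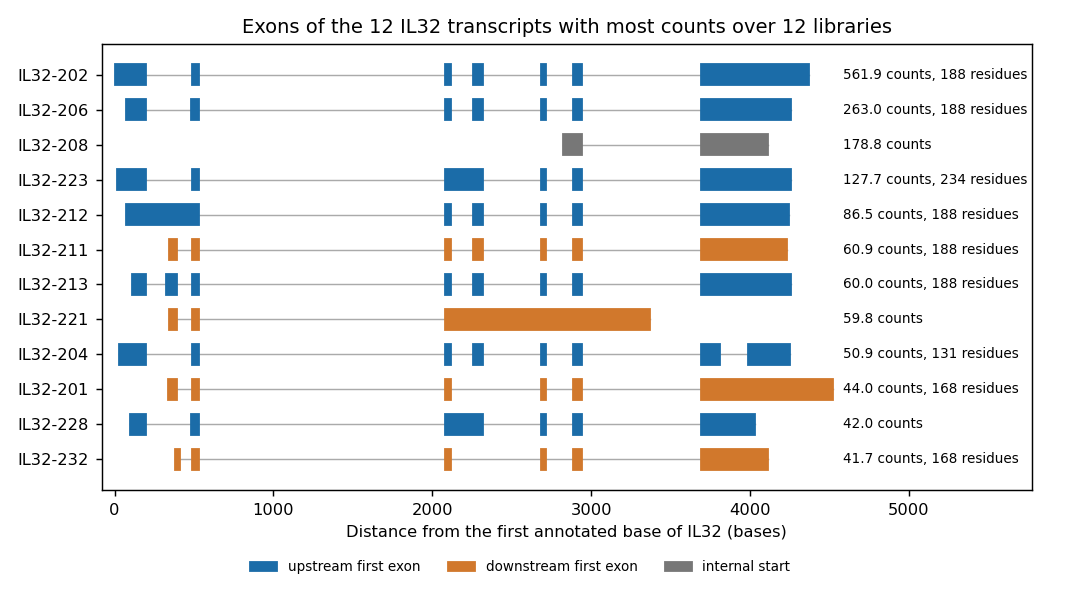
Exons (boxes) and introns (lines) of the 12 IL32 transcripts with the most estimated counts over the 12 libraries, by distance in bases from the first annotated base of the gene and coloured by first exon. IL32-202 leads with 561.9 counts, and 7 of the 12 have the upstream first exon.

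IL32 was low without EphB2-Fc and several-fold higher with it, in both siRNA arms. Its level in Ctrl was 3.37, 1.76 and 2.72 CPM in replicates 1, 2 and 3. In EphB2 it was 17.4, 9.04 and 14.5 CPM. In ephrin-B1 siRNA it was 3.47, 1.52 and 2.55 CPM. In EphB2 + ephrin-B1 siRNA it was 17.6, 8.6 and 16 CPM. The 6 libraries with EphB2-Fc were all above the 6 with Ctrl-Fc, with 8.6 CPM the lowest of the former and 3.47 CPM the highest of the latter. Within every group replicate 1 was the highest and replicate 2 the lowest, and replicate 1 was 1.92 to 2.28 times replicate 2. In a bulk RNA sample, more cells with IL32 RNA and more IL32 RNA per cell cannot be told apart.

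**Figure D2:**
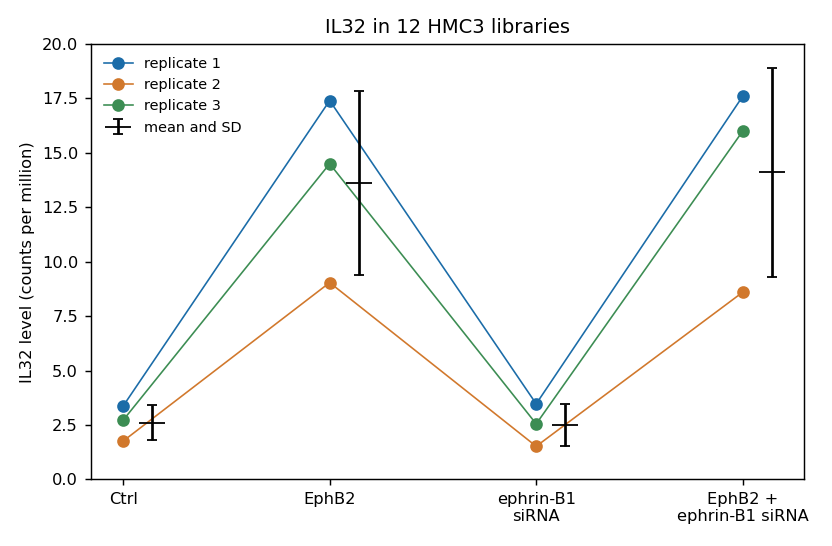
IL32 level in CPM in each library, with lines joining libraries of the same replicate number and black marks for the mean and SD of 3 libraries. The 3 lines keep their order by replicate number, and every library with EphB2-Fc lies above every library without it.

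The group means in order were 2.51 ± 0.976 CPM in ephrin-B1 siRNA, 2.61 ± 0.812 in Ctrl, 13.6 ± 4.23 in EphB2 and 14.1 ± 4.81 in EphB2 + ephrin-B1 siRNA (SD, n = 3). The first pair and the last pair in this order differed by less than their spread. Per transcript length, the summed IL32 level was 4.53 ± 1.45 TPM in Ctrl, 22.5 ± 9.48 in EphB2, 5.18 ± 3.55 in ephrin-B1 siRNA and 22.9 ± 8.08 in EphB2 + ephrin-B1 siRNA (SD, n = 3). The lowest count behind these values was 26.2, and for the 34 counts of Ctrl replicate 2 the 95% Poisson interval was 23.5 to 47.5, which covers counting error only.

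The EphB2 vs Ctrl difference, a rise of the kind for which IL32 was chosen, was 2.40 on the log2 scale (SE 0.379). The folds by replicate number were 5.15, 5.15 and 5.34. Among 14272 genes with a mean of at least 1 CPM this was the 7th highest log2 fold change, and among all 21601 genes tested it had rank 283. Either rank restates the rise for which IL32 was chosen. In this comparison 0.037% of all 21601 genes tested were called, against 5.34% in a fit that blocks on replicate number.

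In knocked-down cells the IL32 level was also higher with EphB2-Fc. EphB2 + ephrin-B1 siRNA exceeded ephrin-B1 siRNA by 2.48 on the log2 scale (SE 0.377), 5.57-fold with a 95% confidence interval of 3.14 to 9.88 from the fit without the block. IL32 was chosen by its rise with EphB2-Fc, so this interval is not corrected for that choice and is not read as a test. By replicate number the folds were 5.07, 5.66 and 6.29. Leaving out 1 library at a time gave differences of 2.23 to 2.78. In this comparison 0.116% of all genes tested were called, and 6.92% with the block.

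Ephrin-B1 knockdown was set against negative control siRNA in each Fc arm, and these comparisons share libraries with those that chose IL32. Between ephrin-B1 siRNA and Ctrl the IL32 difference was -0.04 on the log2 scale, with a 95% confidence interval of -0.90 to 0.83 (edgeR, adjusted p 0.991). Between EphB2 + ephrin-B1 siRNA and EphB2 it was 0.05 with an interval of -0.71 to 0.80 (edgeR, adjusted p 0.995). With the block the intervals were -0.36 to 0.23 and -0.17 to 0.24. EFNB1 itself fell by 1.35 in the first of these comparisons (edgeR, adjusted p 0.00124) and by 1.47 in the second (edgeR, adjusted p 0.00189). Of all genes 1.81% and 0.616% were called in these comparisons, and 13.6% and 9.93% with the block. For IL32 the effect of EphB2-Fc with knockdown minus that without it, the interaction, was 0.08 (interval -1.06 to 1.22, edgeR, adjusted p 1). In the interaction 0% of all genes were called (edgeR), with 2.31% at an unadjusted p under 0.05, and 0.00463% were called with the block.

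The IL32 counts were spread over many transcripts. Of the 35, 32 had a count above 0, 21 had at least 10 counts over the 12 libraries, and IL32-221, a retained-intron transcript, was the only one above 0 in all 12. Transcript levels are estimates with little to tell them apart, since 24 of the 35 transcripts had no 31-base word of their own. IL32-221 had the largest share of words of its own, at 41.5%. It had 2, 4.3 and 3 counts in Ctrl and 4.1, 2.3 and 5.3 in EphB2. In ephrin-B1 siRNA it had 3.1, 5.5 and 5.4 counts, and in EphB2 + ephrin-B1 siRNA 14.6, 4.3 and 5.9. Its ranges with and without EphB2-Fc thus overlapped. Of the 3292 words of 31 bases in IL32, 175 also occurred in transcripts of other genes, and these lay in 6 transcripts. IL32-202 and IL32-221 were among the 6, with 9.2% and 5.5% of their words. Only 1.4% of the words of IL32-202 were its own.

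IL32-202, with the upstream first exon and 188 residues, had the most counts (561.9, or 30.85% of 1821.4). In Ctrl it had 20.3, 2.8 and 0 counts, and in EphB2 120.5, 68.5 and 129.3. In ephrin-B1 siRNA it had 0.7, 8.2 and 15.4 counts, and in EphB2 + ephrin-B1 siRNA 113.6, 32.4 and 50. All 6 libraries with EphB2-Fc were thus above all 6 without it in counts that are not scaled for depth. IL32-206, which also codes for 188 residues, followed with 263.0 counts in all. It had 0 to 14.6 counts in libraries without EphB2-Fc and 12.6 to 69.8 in those with it, so its ranges overlapped.

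IL32-208, a retained-intron transcript with an internal start, had 178.8 counts, with 0 to 9.3 in the libraries without EphB2-Fc and 15.6 to 51.5 in those with it. IL32-223, the 234-residue form with the stretch shown above, had 127.7 counts. It was at 0 in all 3 Ctrl libraries, at 33, 0 and 21.9 in EphB2, at 0, 0 and 4.3 in ephrin-B1 siRNA and at 39, 14.5 and 15 in EphB2 + ephrin-B1 siRNA. IL32-204, the 131-residue form, was at 0, 6.1 and 6.4 counts in Ctrl and at 0 in all 3 EphB2 libraries. It had 1.2, 0 and 0 counts in ephrin-B1 siRNA and 11.3, 17.1 and 9 in EphB2 + ephrin-B1 siRNA. Both forms were thus above 0 in all 3 EphB2 + ephrin-B1 siRNA libraries.

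With EphB2-Fc in knocked-down cells the fitted difference of IL32-202 was 3.01 on the log2 scale (SE 1.1) and that of IL32-204 was 4.83 (SE 1.37). None of the 22 IL32 transcripts tested was called over 110513 transcripts (edgeR), with or without the block, while 0.00362% of all transcripts were called, and 0.0235% with the block. Transcript counts were rounded in each library before the filter of 10 counts, which let in IL32-220 with 9.7 counts. At an unadjusted p under 0.05 there were 7 of the 22, all higher with EphB2-Fc, against 4.73% of all transcripts. They were IL32-202, IL32-204, IL32-206, IL32-207, IL32-208, IL32-213 and IL32-223. In EphB2 vs Ctrl 5 of the 22 had an unadjusted p under 0.05, against 4.19% of all transcripts, and 4 of them were higher. IL32-204 was lower there, at -4.995 on the log2 scale (SE 1.59). IL32 was chosen by its rise with EphB2-Fc, so these counts are a description and nothing is read from these shares.

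Sorted by coding sequence, a grouping made after the counts were seen, the 10 transcripts of 188 residues held 62.5% of all IL32 counts. The 5 transcripts without a coding sequence held 14.1%, the 3 of 234 residues 9.1%, the 5 of 168 residues 6.6% and the 3 of 131 residues 3.0%. The share of the 188-residue forms was 83.4%, 27% and 46.8% in Ctrl and 70.6%, 79.1% and 68.4% in EphB2. In ephrin-B1 siRNA it was 31.5%, 42% and 70.7%, and in EphB2 + ephrin-B1 siRNA 57.9%, 47.8% and 66.9%. The libraries with EphB2-Fc lay within the range of those without it, which had few IL32 counts and a wide spread.

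Sorted by first exon, the 13 transcripts with the upstream first exon held 69.3% of IL32 counts, the 20 with the downstream first exon 20.6% and the 2 with an internal start 10.1%. Of the 31-base words of IL32, 13.8% occurred only in transcripts with the upstream first exon and 33% only in those with the downstream one. The upstream share was 92.7%, 49.8% and 58% in Ctrl and 75.5%, 69.7% and 75.6% in EphB2. In ephrin-B1 siRNA it was 34.5%, 49.2% and 46.4%, and in EphB2 + ephrin-B1 siRNA 72.2%, 63.3% and 69%. Both groups with EphB2-Fc were above ephrin-B1 siRNA in every library, and the Ctrl range spanned both groups with EphB2-Fc, its lowest value (49.8%) lying just above the highest of ephrin-B1 siRNA (49.2%). These shares were not tested, because the grouping was made with the values known.

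**Figure D3:**
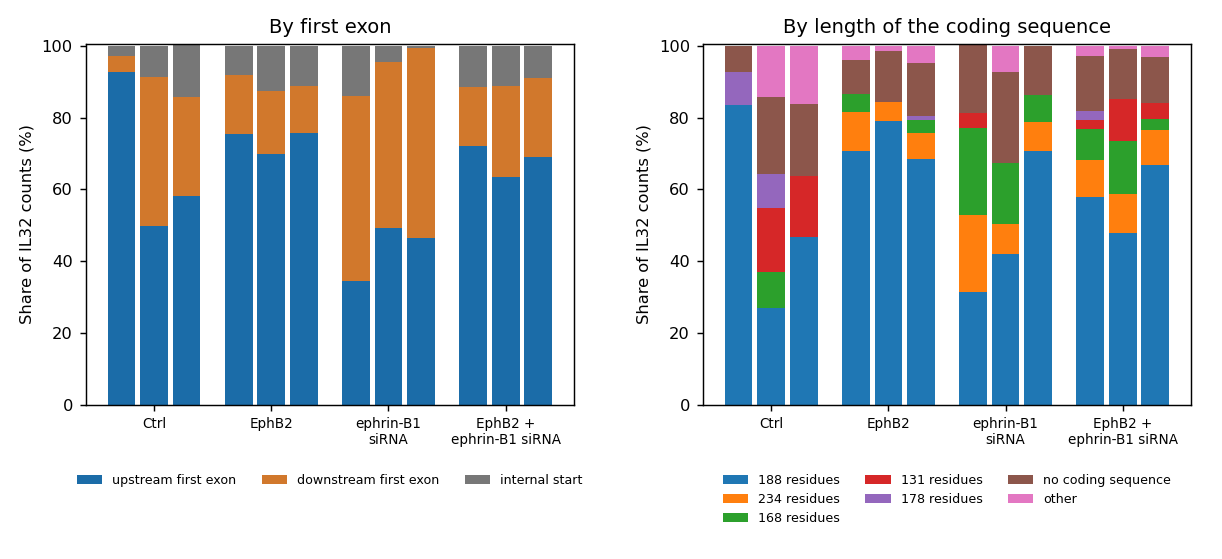
Share of IL32 estimated counts by first exon (left) and by length of the coding sequence (right), in percent, 1 bar per library in the order of replicates 1, 2 and 3. The upstream first exon holds 34.5% to 49.2% in ephrin-B1 siRNA and 63.3% to 72.2% in EphB2 + ephrin-B1 siRNA.

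The share of the leading transcript IL32-202 was compared between groups. It was 1%, 31.5% and 29.1% of IL32 counts in ephrin-B1 siRNA and 25.4%, 22% and 24.3% in EphB2 + ephrin-B1 siRNA, means of 20.5% ± 16.9 and 23.9% ± 1.7 (SD, n = 3). The difference of 3.4 percentage points gave p = 1 in an exact two-sided permutation test, in which 3 libraries against 3 cannot go below 0.1. It was -6.4 without ephrin-B1 siRNA replicate 1, 8.8 without ephrin-B1 siRNA replicate 2 and -0.3 as a share of TPM, so its sign rests on these choices. In Ctrl the share was 45.2%, 8.3% and 0%, and in EphB2 39.6%, 47.9% and 43.5%. Over both Fc arms the share was 8.5 percentage points lower with ephrin-B1 siRNA than with negative control siRNA (difference -8.5, exact two-sided permutation test within each Fc arm, p = 0.38, smallest possible 0.005). That difference ran from -13 without Ctrl replicate 3 to -1.7 without Ctrl replicate 1, and was -3.7 without ephrin-B1 siRNA replicate 1. Neither difference exceeded the spread between libraries.

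Among the genes around IL-32, 1 downstream cytokine, IL6, rose with EphB2-Fc in knocked-down cells. Of 40 pathway genes (inducers and their receptors, binding partners, downstream cytokines), 37 could be tested. With EphB2-Fc in knocked-down cells 1 of the 37 rose, against the 0.116% of all genes given above, and with the block 5 rose and 1 fell, against 6.92%. Their median log2 fold change was 0.01, beside 0.001 for all genes. In the same comparison 7 had an unadjusted p under 0.05, which is 18.9% of them, against 8.45% of all genes. In EphB2 vs Ctrl none of the 37 was called (edgeR), against 0.037% of all genes, and 4 had an unadjusted p under 0.05, which is 10.8% of them, against 7.56% of all genes. With the block 7 were higher and 1 lower there, against 5.34% of all genes. DESeq2 called 2 of the 37 in EphB2 vs Ctrl, against 0.94% of all genes, and 3 in knocked-down cells, against 1.25%.

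Of the inducers, IL1B, a cytokine that raises IL32, was at 5.58, 2.69 and 4.76 CPM in ephrin-B1 siRNA and at 10.9, 7.72 and 8.33 CPM in EphB2 + ephrin-B1 siRNA. The log2 fold change was 1.05 (SE 0.291, edgeR, adjusted p 0.292, with the block 0.000481). IL1A was at 0.701 to 1.78 CPM and 1.4 to 3.58 CPM in the same groups, which overlapped. TNF, IFNG and CCL4 had too few counts to be tested. For TNF, which lies in the MHC region, copies on alternate sequences were not paired here, so its low level is uncertain. Of the receptors, TNFRSF1A, the main TNF receptor, was at 123 to 146 CPM over the 12 libraries and differed by 0.004 on the log2 scale with EphB2-Fc in knocked-down cells (SE 0.0578, edgeR, adjusted p 1). TLR3, a receptor of double-stranded RNA, differed by 0.70 between ephrin-B1 siRNA and Ctrl (SE 0.46, edgeR, adjusted p 0.636, with the block 0.000396).

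None of the 9 binding partners was called with EphB2-Fc in either arm by edgeR, with or without the block, nor by DESeq2. Over all genes edgeR called 0.037% in EphB2 vs Ctrl and 0.116% in knocked-down cells, and 5.34% and 6.92% with the block. DESeq2 called 0.94% and 1.25%. At an unadjusted p under 0.05 there were 0 of the 9 in EphB2 vs Ctrl, against 7.56% of all genes. In knocked-down cells there was 1, against 8.45%. PRTN3, the protease proteinase 3 that cleaves IL-32, was at 0.261 to 1.06 CPM over the 12 libraries. ITGAV and ITGB3, the integrin chains that IL-32 binds, were at 253 to 332 CPM and 29.4 to 76.2 CPM. ITGAV differed by 0.15 with EphB2-Fc in knocked-down cells (SE 0.0954, edgeR, adjusted p 0.747) and ITGB3 by -0.02 (SE 0.328, edgeR, adjusted p 1).

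Of the downstream cytokines 10 of 12 could be tested, with a median log2 fold change of 0.71 with EphB2-Fc in knocked-down cells, beside 0.001 for all genes. IL6, an inflammatory cytokine, was the gene that rose, from 4.47, 3.45 and 4.37 CPM to 10.8, 8.08 and 8.17 CPM (log2 fold change 1.14, SE 0.182, edgeR, adjusted p 0.0477). That call was lost in 10 of 12 fits that left out a library. CXCL8, the neutrophil chemokine, was at 9.89, 4.73 and 6.63 CPM and at 33.7, 19.4 and 21.2 CPM in the same groups. Its log2 fold change was 1.81 (SE 0.428, edgeR, adjusted p 0.194, with the block 9.72e-05). CXCL1, a related chemokine, differed by 1.46 (SE 0.499, edgeR, adjusted p 0.429, with the block 0.000616). CCL5, a T cell chemokine, differed by 0.64 (SE 0.956, edgeR, adjusted p 0.958, with the block 0.00115), and its CPM ran from 4.85 to 37.1 in ephrin-B1 siRNA alone. IL18 was called lower with the block only, at -0.53 (edgeR, adjusted p 0.0268 with the block).

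NF-kB genes were set beside IL32 as a further list of 12, all tested. With EphB2-Fc in knocked-down cells 2 of them rose and none fell, against 0.116% of all genes, and 7 rose with the block, against 6.92%. The median log2 fold change was 0.42, beside 0.001 for all genes. NFKBIA, the NF-kB inhibitor IκBα and itself a target of NF-kB, was at 37.4, 39.5 and 39.2 CPM in ephrin-B1 siRNA and at 60.7, 71.8 and 67.8 CPM in EphB2 + ephrin-B1 siRNA. Its rise was 0.79 on the log2 scale (SE 0.0829, edgeR, adjusted p 0.00717). BIRC3, an inhibitor of apoptosis, was at 9.78, 8.42 and 9.33 CPM and at 25.4, 23.9 and 23.6 CPM, a rise of 1.40 (SE 0.166, edgeR, adjusted p 0.00956). NFKB2, the subunit p100, differed by 0.65 (SE 0.108, edgeR, adjusted p 0.0551, with the block 9.5e-06). TNFAIP3, the NF-kB inhibitor A20, differed by 1.09 (SE 0.24, edgeR, adjusted p 0.162, with the block 3.39e-05). In EphB2 vs Ctrl none of the 12 was called (edgeR), against 0.037% of all genes. There 9 had an unadjusted p under 0.05, against 7.56% of all genes, and DESeq2 called 4, against 0.94%. With the block 5 were called there, against 5.34%.

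**Figure D4:**
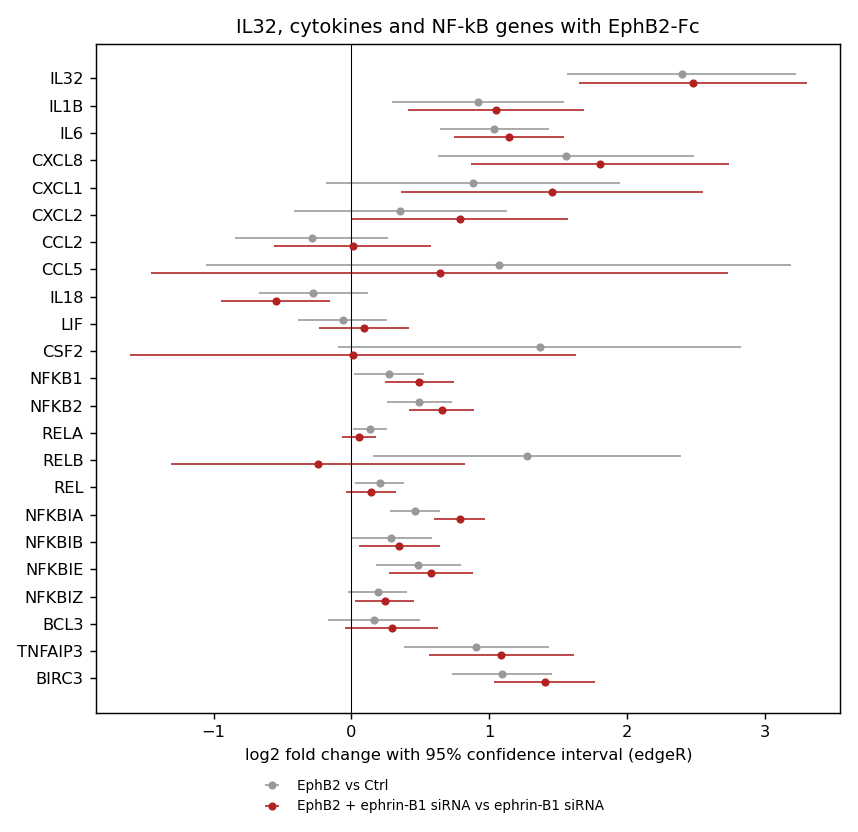
Log2 fold change with EphB2-Fc and its 95% confidence interval (edgeR without the block) for IL32, cytokines reported downstream of IL-32 and NF-kB genes, with negative control siRNA (grey) and with ephrin-B1 siRNA (red). IL32 lies at 2.40 and 2.48, to the right of every other gene shown, and its intervals are not corrected for its choice by this rise.

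No gene next to IL32 was called with EphB2-Fc without the block. Of 14 genes within 100 kb none passed in knocked-down cells by edgeR, against 0.116% of all genes, or by DESeq2, against 1.25%. At such shares none of 14 genes called is not read as a result about them. An unadjusted p under 0.05 was found for 3, against 8.45% of all genes. With the block 2 were higher and 1 lower, against 6.92% of all genes. MMP25, a membrane metalloprotease gene 4571 bases away, was at 4.42 to 5.34 CPM in ephrin-B1 siRNA and at 5.27 to 6.61 CPM in EphB2 + ephrin-B1 siRNA (a difference of 0.22 on the log2 scale, SE 0.152, edgeR, adjusted p 0.802). HCFC1R1, 41011 bases away, was the lower one with the block, at -0.29 (edgeR, adjusted p 0.00734 with the block). PKMYT1, a cell cycle kinase, and TNFRSF12A, the receptor of TWEAK, were the higher ones, at 0.27 and 0.31 with the block.

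Marker genes of T and NK cells, which are known for IL32, were checked over 13 genes. TRBC2 was at 0, and CD3D, CD3E, CD2 and TRBC1 had 1 to 3 counts each over the 12 libraries. The summed level was 9.89 to 12.9 CPM in Ctrl, 10.6 to 16.5 in EphB2, 8.42 to 8.99 in ephrin-B1 siRNA and 11.4 to 14.1 in EphB2 + ephrin-B1 siRNA. Most of it was KLRD1, whose 12 libraries ran from 5.39 to 13 CPM.

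The genes whose pattern over the 12 libraries was most like that of IL32 were found by the root mean square difference of log2 CPM, each gene centred on its own mean, among 14271 genes with a mean of at least 1 CPM. In order they were IL4I1 (0.496), CXCL8 (0.504), IFITM1 (0.595), CTSS (0.601), C3 (0.604), MX2 (0.634), MYOCD (0.635), CXCL5 (0.656), BIRC3 (0.669) and CD74 (0.714). The 12 points share 4 groups and 3 experiment numbers, and no test was made of this likeness. IL4I1, an amino acid oxidase of immune cells, was at 1.24 CPM on average in Ctrl and 4.77 in EphB2, and at 1.38 and 5.82 in the knocked-down groups without and with EphB2-Fc. C3, the central complement protein, was at 8.69, 37.7, 6.2 and 32.9 CPM in the same order of groups. Its replicate 2 was the highest in EphB2, at 46 CPM, where that of IL32 was the lowest. IFITM1 has near-identical relatives, so its level is uncertain. With the mean of each replicate number removed, 9 of these 10 genes were again among the 10 most alike, with C3 first (0.227). By Pearson's correlation 1 of the 10, BIRC3, was among the 10 most alike, so the list depends on the measure.

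**Figure D5:**
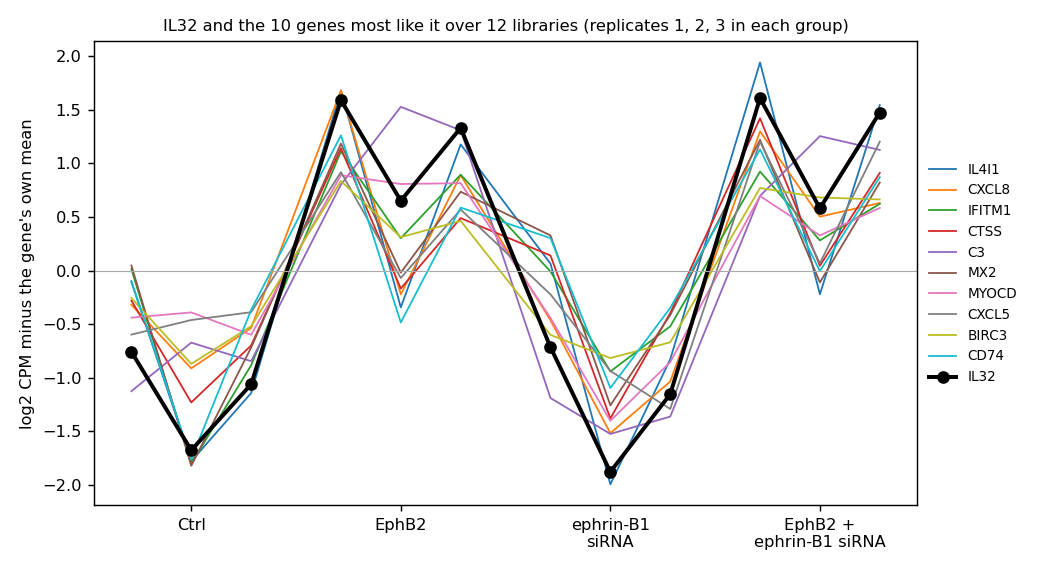
Log2 CPM of IL32 (black) and the 10 genes most like it, each minus its own mean over the 12 libraries, with replicates 1, 2 and 3 in order in each group. The lines rise in both groups with EphB2-Fc, and most dip at replicate 2.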

How the data were processed

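The authors quantified paired-end reads of HMC3 RNA (rRNA depleted) with kallisto on the Ensembl cDNA sequences of GRCh38; the kallisto version is not given in the sources used here. The estimated counts per transcript were deposited by the authors without normalization, and the deposited TPM values were computed by kallisto from them and the effective lengths. Each transcript was paired with a gene by GENCODE 44 (167067 of 188753, 88.5%), and the rest, copies on alternate sequences among them, were not used.

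Gene sums of the estimated counts were rounded and filtered at 10 counts over the 12 libraries (21601 genes). All 4 groups were fitted with edgeR 4.0.16 (quasi-likelihood test, TMM), with Benjamini-Hochberg adjustment over all genes and a threshold of 0.05. The fit without the block was run on simulated data, and the outcome is not given here. No such run is described for the blocked fit. CPM are after TMM. Alternatives were DESeq2 1.42.0, limma 3.58.1 on TPM, other filters and scalings, an offset for length, only the groups compared, the replicate block and leaving out libraries. The scripts ran in R 4.3.3 and Python 3.11.15, with pandas 2.3.3, numpy 2.4.6 and matplotlib 3.10.9.

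The gene, the lists and the tests were chosen with earlier results of these data known. Genes were named by rule: IL32 and its transcripts with at least 10 counts, EFNB1, list members called in any comparison together with a fixed set (TNF, IL1B, IL6, CXCL8, NFKBIA, NFKB2, BIRC3, TNFAIP3, PRTN3, ITGAV, ITGB3), genes within 100 kb and the 10 most alike, of which examples are given. The summed level of the microglia markers is not reported here.

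The experiment number in the deposited file names pairs libraries across groups. Deviations from the group means correlated between same-numbered libraries, at 0.567 to 0.674 in replicate 1 and 0.606 to 0.641 in replicate 2. In replicate 3 the range was 0.0141 to 0.18, and its pairing rests on the experiment number alone. The biological coefficient of variation of IL32 was 30.8% in the fit of groups alone (8 residual degrees of freedom) and 7.35% in the blocked fit (6).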

Additional observations from a re-analysis of the deposited data

How the results depend on the processing

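IL32 was chosen by its rise with EphB2-Fc, so a kept direction in refits of the same libraries is no support for that rise. The difference in knocked-down cells, given without a test, was positive under all 29 alternatives. It was 2.54 with an offset for effective length, 2.05 and 2.29 with limma on log2 of TPM + 1 and TPM + 0.1 and 2.48 in a fit of only the groups compared. Leaving out replicate 1 or 3 in every group, chosen after seeing the data, gave 2.58 and 2.40. Leaving out 1 library gave 2.23 to 2.78.

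With the replicate block the pairing gave 2.48. It moved the pathway genes called from 1 to 6 in that comparison and from 0 to 8 in EphB2 vs Ctrl, where DESeq2 gave 3 and 2. Blocked fits without replicate 1, 2 or 3 gave 7, 6 and 4, and 6, 5 and 2. Unblocked fits without replicate 1, 2 or 3 in every group gave 0, and leaving out 1 library gave 0 to 1. For the fits that left out libraries the share of all genes called is not given here, so nothing is read from their counts. The causes were not tested. The tested IL32 differences between siRNAs, their interaction and the share of IL32-202 passed the threshold under no alternative run, which for the exact test of 3 libraries against 3 says nothing, as it cannot pass. At 26.2 to 66.1 IL32 counts in each library without EphB2-Fc, depth limits the isoform shares there.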
